A study of Arabidopsis thaliana with 12 samples.

Results

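The nuclear genome of Arabidopsis thaliana carries, beside the centromere of chromosome 2, an insertion that copies nearly all of the mitochondrial genome. The 44 probe sets described here list a locus numbered AT2G07665 to AT2G07840, a range of numbers that holds the loci of the insertion and, as gene order shows below, 6 loci set apart from them. They were taken from 46 such probe sets after 2 that also list the mitochondrial gene nad1 were left out, among 22746 probe sets on the array. Of the 44, 35 list only nuclear loci and 9 also list a mitochondrial gene. No filter on signal was applied, so every member was tested.

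Mitochondria move DNA to the nucleus now and then, and such copies are called nuclear mitochondrial DNA. The copy on chromosome 2 is nearly identical in sequence to its source. A short probe designed on either can therefore often bind transcripts of both. Mitochondrial genes themselves encode subunits of the respiratory chain and the ATP synthase, ribosomal proteins and factors for cytochrome c maturation. Which copy gave rise to the RNA was not tested here, since no probe sequence was used. Listing only nuclear loci means only that the annotation names no mitochondrial gene, whichever copy the probes were designed on.

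Signals came from Affymetrix arrays hybridised with RNA from the above-ground parts of 8-week-old plants of the Col-0 background. Wild-type plants were sampled untreated (n = 2) and heated (n = 3), and msh1 recA3 double mutant plants untreated (n = 4) and heated (n = 3). MSH1 and RECA3 are nuclear genes whose proteins keep organelle DNA from recombining at repeats. Growth was at 24 °C and heat was 37 °C, lasting 2 h by the design text and about 24 h by the treatment protocol, so its length is not settled. The labels call the samples biological replicates without saying which plants were pooled. The p-values weigh group differences against the spread between these samples within groups, pooled over all 4 groups.

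Over all probe sets the first principal component (71.1% of the variance) split the samples by heat. The second (10.2%) ran from the wild type to the double mutant. Heated double mutant replicate 3 scored 8.73 on the second, against -22.5 and -26.8 for the other heated double mutants. Untreated double mutant replicates 1 and 2 scored -2.95 and -0.96, against -22.9 and -30.9 for replicates 3 and 4. These 3 libraries stand apart from their groups, and counts that depend on them are given with and without them. Among double mutant samples they lie nearest the wild type on this component. Leaving them out can therefore widen genotype differences, and it keeps only 2 samples in each double mutant group. Over all probe sets it raised calls from 613 to 2516 between untreated genotypes and from 204 to 1462 between heated ones. The leaf markers RCA and LHCB4.1 read 13.02 to 13.85 in every sample, and EXPA7 of root hairs and ACT12 of pollen read 3.24 to 4.13. PYK10, the other root marker, read 5.94 to 8.88, above the median of every array. TUA1, a pollen-rich tubulin, read 7.15 to 8.06. Of the listed markers 2 of 8 for leaf, 2 of 6 for root, 2 of 4 for pollen and 0 of 4 for flower could be named on this array.

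The 9 members that also list a mitochondrial gene cover atp9 and atp1 of the ATP synthase, cob of complex III, cox3 of complex IV, and the ribosomal protein genes rps4, rps7, rps12, rpl2 and rpl5. All 9 are _s_at probe sets, a suffix for probes shared between transcripts. Among the 35 that list only nuclear loci, 20 are _s_at and 15 are plain _at, and no member is _x_at. Only AT2G07750, on an _s_at probe set, shares its probe set with another nuclear locus, AT1G63250 on chromosome 1. The platform annotation names the nuclear loci by locus only.

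Locus numbers and gene order do not run in parallel here. In the RefSeq gene order of TAIR10.1, 38 members lie together, from AT2G07773 to AT2G07670, before the nuclear genes ABCC13 and MCM5. The other 6, AT2G07700, AT2G07720, AT2G07730, AT2G07740, AT2G07750 and AT2G07760, lie beyond MCM5, so these nuclear genes separate them from the stretch and they are not counted as insertion loci. They were kept because members were chosen by number. For the main calls, counts within the stretch are given beside those for all, but counts under alternatives cover all members. All 9 members with a mitochondrial gene fall in the first stretch, as do 29 of the 35 with only nuclear loci. This order was used only to describe neighbours, because the build behind the array's annotation is not given in the sources used here.

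Signals are log2 RMA values, and differences below are on this log2 scale with the SE of limma unless a fold is named. Signals of different probe sets are not comparable as amounts. The lower quartile of the arrays ran from 3.67 to 3.79. Of the 35 members with only nuclear loci, 10 lay below their array's lower quartile in both untreated wild-type samples and 2 in all 12 samples, against 0 of the 9 with a mitochondrial gene. Rises from such low readings start at signals not shown to exceed background.

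**Figure D1:**
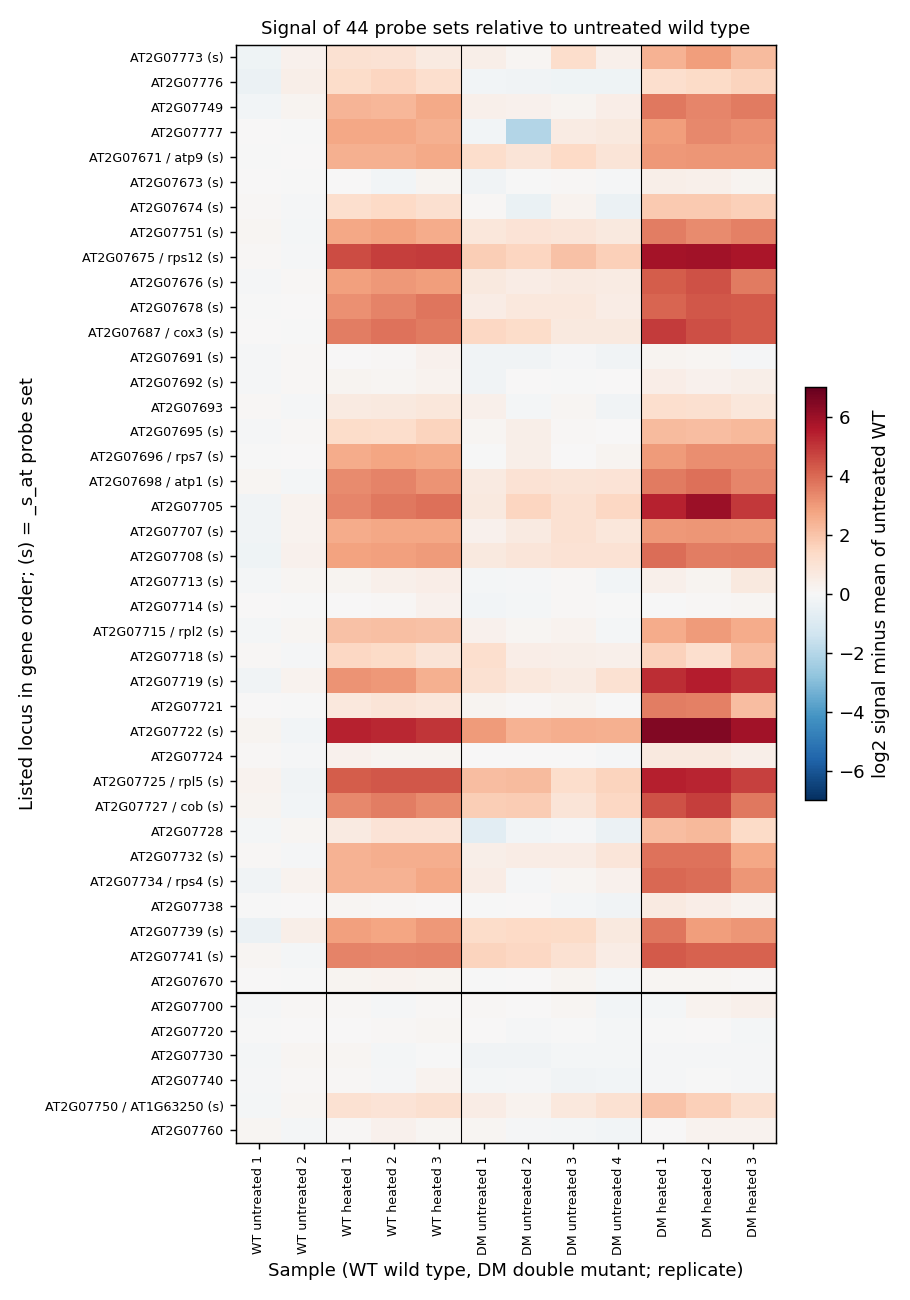
Log2 signal of the 44 probe sets (rows, in gene order, with any other listed gene after a slash) in the 12 samples (columns), relative to the mean of untreated wild type. Rows below the black line are the 6 loci beyond MCM5, of which only AT2G07750 passed the test under heat. Readings above the line are mostly redder in heated samples, and the row of AT2G07777 shows untreated double mutant replicate 2 at 4.17 against 6.02 to 6.89 in its group.

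In the wild type, where 3 heated samples were set against 2 untreated ones, heat raised 29 of the 44 members at an adjusted p under 0.05, and none fell. Over all probe sets 26.5% passed and 13.7% passed upward. All 9 members with a mitochondrial gene rose, by 2.08 to 4.77 with a median of 3.31. Among those with only nuclear loci 20 of 35 rose, with a median of 1.05 over all 35, while the median over all probe sets was 0.01. Of the 6 markers TUA1 fell by 0.47 ± 0.11 and RCA rose by 0.32 ± 0.10, and the other 4 gave -0.33 to 0.07 without passing. Their part in the result was not tested. Split by suffix, 14 of 20 _s_at and 6 of 15 plain _at members rose, with medians of 1.92 and 0.23. The 5 flat plain _at loci beyond MCM5 are among the 15. Within the stretch before ABCC13, 13 of 19 _s_at and 6 of 10 plain _at members rose, with medians of 2.49 and 0.82.

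The rise of AT2G07722 (266014_s_at) was the largest among members in the wild type. It read 5.10 and 4.69 untreated and 10.29, 10.16 and 9.92 heated, a difference of 5.23 ± 0.22 or 37.5-fold (adjusted p = 1.83e-08). AT2G07705 (265242_at), on a plain _at probe set, read 3.84 and 4.35 untreated and 7.50, 7.76 and 7.95 heated. Its groups lay far apart, with a difference of 3.64 ± 0.31 (12.5-fold, adjusted p = 6.68e-06). AT2G07678 (263505_s_at) went from 3.50 and 3.56 to 6.75, 7.03 and 7.28, a rise of 3.49 ± 0.15 that began below the lower quartile of the arrays.

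Among members that share a probe set with a mitochondrial gene, AT2G07675 with rps12, a protein of the small ribosomal subunit, changed most. Its signal was 4.55 and 4.33 in untreated and 9.01, 9.30 and 9.32 in heated wild type. The rise was 4.77 ± 0.16, or 27.3-fold (adjusted p = 2.76e-09). AT2G07725 with rpl5, of the large ribosomal subunit, read 4.85 and 4.32, then 8.81, 8.92 and 8.91, a rise of 4.30 ± 0.29. The smallest rise of this kind was that of AT2G07715 with rpl2, at 2.08 ± 0.15. AT2G07671 with atp9, the ring subunit of the ATP synthase, rose by 2.55 ± 0.14 from readings that were already 9.59 and 9.68. AT2G07707 (265230_s_at), with the highest mean signal of the members with only nuclear loci, read 7.65 and 8.12 untreated and 10.46, 10.61 and 10.60 heated, a rise of 2.67 ± 0.20.

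The 6 plain _at members that rose in the wild type were AT2G07705, AT2G07777 (2.63 ± 0.61), AT2G07749 (2.46 ± 0.15), AT2G07776 (1.32 ± 0.20), AT2G07728 (0.83 ± 0.26) and AT2G07693 (0.69 ± 0.18). For AT2G07777 untreated double mutant replicate 2 lay far below its group, and the fit uses 1 spread over all samples of a probe set. AT2G07773, an _s_at member and the first in gene order, missed the threshold at 0.91 ± 0.32 (adjusted p = 0.0584), and AT2G07721 at 0.82 ± 0.32 (adjusted p = 0.0829).

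Of the loci beyond MCM5 only AT2G07750 passed. For AT2G07720 (266961_at), a pseudogene in RefSeq and the member with the lowest and flattest signal, the signal was 3.22 and 3.27 in untreated and 3.28, 3.32 and 3.36 in heated wild type, a difference of 0.08 ± 0.09. All 5 plain _at members there gave -0.01 to 0.18, and none passed. AT2G07750, whose _s_at probe set also lists AT1G63250, rose by 1.05 ± 0.25 (adjusted p = 0.00953), from 3.58 and 3.81 to 4.76, 4.66 and 4.80.

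Some members before ABCC13 also showed little. AT2G07714 read 3.77 to 4.24 over all 12 samples and AT2G07670, the last before ABCC13, read 3.15 to 3.52, and neither passed in any comparison. Both stayed below the median of their array throughout, as did 14 of the 44 members.

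In the double mutant, with 3 heated and 4 untreated samples, heat raised 37 of the 44 members, and none fell. Over all probe sets 34% passed and 13.8% passed upward. All 9 members with a mitochondrial gene rose again, by 1.96 to 4.09 with a median of 3.00. Of those with only nuclear loci 28 of 35 rose, with a median of 1.93 over all 35, namely 19 of 20 _s_at and 9 of 15 plain _at members. Within the stretch before ABCC13, 18 of 19 _s_at and 9 of 10 plain _at members rose, with medians of 2.07 and 1.94. Without the 3 libraries that stand apart 25 of 35 and 9 of 9 rose, where 6392 of all probe sets passed against 7725 with them. Over the same comparison the root marker PYK10 fell by 1.73 ± 0.29 and the pollen-rich TUA1 by 0.54 ± 0.09 (adjusted p = 0.000699 and 0.00107), as did the leaf marker LHCB4.1 by 0.23 ± 0.07 (adjusted p = 0.0173). The others did not pass, with 0.11 ± 0.09 for EXPA7, 0.17 ± 0.08 for ACT12 and -0.09 ± 0.08 for RCA. Their part in the result was not tested.

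AT2G07719 (265235_s_at) rose most. It read 5.77, 5.47, 5.28 and 5.77 untreated and 9.90, 10.22 and 9.84 heated, a difference of 4.41 ± 0.19 (adjusted p = 1.25e-08). The heated replicate 3, which stands apart over all genes, read here with its group. AT2G07705 read 4.75, 5.60, 5.18 and 5.54, then 9.49, 10.06 and 9.04, a rise of 4.26 ± 0.26 (19.2-fold). AT2G07722 went from 7.85, 7.31, 7.42 and 7.38 to 11.35, 11.39 and 10.75, a rise of 3.67 ± 0.19 (12.8-fold) from a higher untreated reading than in the wild type.

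AT2G07675 with rps12 again led the members with a mitochondrial gene. Its readings of 6.18, 5.92, 6.48 and 6.10 became 10.29, 10.32 and 10.18, a rise of 4.09 ± 0.13 or 17.0-fold. AT2G07687 with cox3, a core subunit of cytochrome c oxidase, read 6.25, 6.10, 5.48 and 5.50 untreated and 9.71, 9.31 and 9.13 heated, a rise of 3.55 ± 0.20. The untreated replicates 1 and 2 were the higher pair for cox3, and for 3 of the 9 members of this kind.

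All 29 members that rose in the wild type rose in the double mutant too, where another 8 passed. These 8 were AT2G07673, AT2G07691, AT2G07692, AT2G07713, AT2G07724, AT2G07738, AT2G07773 and AT2G07721. The first 6 changed by only 0.29 to 0.60 from readings of 3.05 to 4.26. AT2G07773 rose by 1.99 ± 0.27 and AT2G07721 by 2.97 ± 0.27. In the wild type the same 2 loci gave the near misses quoted above, so passing in only 1 genotype is no measure of a difference between them. Beyond MCM5 AT2G07750 alone rose, by 0.96 ± 0.21.

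**Figure D2:**
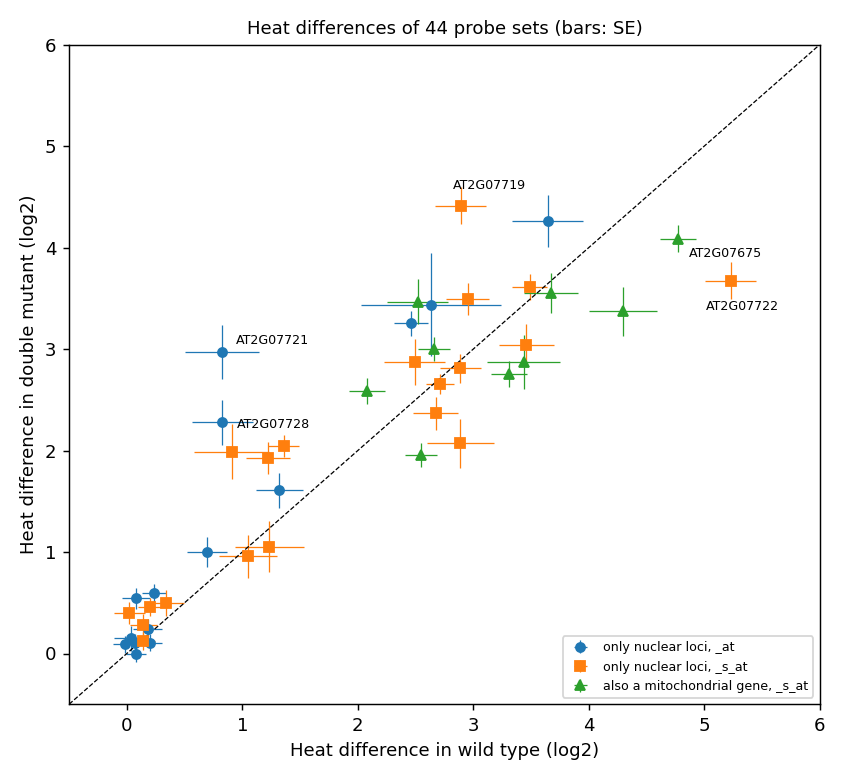
Heat difference in the double mutant (vertical axis, log2) against that in the wild type (horizontal axis, log2) for the 44 probe sets, with SE bars and a dashed line of equal differences. Members with a mitochondrial gene (triangles) lie between 2.08 and 4.77 in the wild type. AT2G07721 and AT2G07728 lie above the line and AT2G07722 below it.

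The difference of the heat responses, double mutant minus wild type, was tested as an interaction in the same model. No member passed it, and 17 of all probe sets did (0.0747%). At an unadjusted p under 0.05 there were 17 of 44 members, against 2372 of all 22746 probe sets. The response was larger in the double mutant for 13 of 15 plain _at members, 11 of 20 _s_at members with only nuclear loci and 3 of 9 members with a mitochondrial gene. Medians of the difference were 0.30, 0.13 and -0.56, against -0.03 over all probe sets. Before ABCC13 the response was larger in the double mutant for 9 of 10 plain _at and 11 of 19 nuclear-only _s_at members. Their medians were 0.54 and 0.14. For members with a mitochondrial gene the direction did not hold, since their median was -0.24 without heated double mutant replicate 3 and 0.04 without the 3 libraries that stand apart. Without those 3 the response was larger in the double mutant for 5 of 9 of them, 12 of 15 plain _at and 11 of 20 _s_at members.

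The widest differences lay at 3 consecutive members in gene order, and they did not point the same way. AT2G07719 gave 1.52 ± 0.29, AT2G07721 gave 2.15 ± 0.42 and AT2G07722 gave -1.56 ± 0.29, with adjusted p of 0.122, 0.131 and 0.114. AT2G07728, further along, gave 1.45 ± 0.35 (adjusted p = 0.211). AT2G07719 passed under no alternative. Over all probe sets 34 passed with array weights, 66 without heated double mutant replicate 3 and 126 without the 3 libraries, against 17. AT2G07721 passed with array weights (2.38 ± 0.32, adjusted p = 0.0249). Without heated double mutant replicate 3 AT2G07721 (2.61 ± 0.14, adjusted p = 1.79e-05) and AT2G07728 (1.75 ± 0.25, adjusted p = 0.0199) passed. Without all 3 libraries that stand apart AT2G07721, AT2G07728 and AT2G07722 passed, at 2.64 ± 0.16, 1.65 ± 0.22 and -1.26 ± 0.22 (adjusted p = 0.000555, 0.0229 and 0.049).

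Before heat (4 double mutant against 2 wild-type samples), 12 of the 44 members were higher in the double mutant and none lower. Over all probe sets 2.69% passed and 2.23% passed upward. Of the 9 members with a mitochondrial gene 6 were higher, with a median of 1.01 over all 9. Of those with only nuclear loci 6 of 35 were higher, with a median of 0.04. All 6 were _s_at, while 0 of 15 plain _at members passed by limma. At an unadjusted p under 0.05 there were 2 of the 15, against 4233 of all 22746 probe sets. The plain _at AT2G07705 differed by 1.17 ± 0.29 with groups that did not overlap (adjusted p = 0.0595). Without the 3 libraries that stand apart 2 of the 15 passed, AT2G07705 (1.27 ± 0.24, adjusted p = 0.0119) and AT2G07777 (0.61 ± 0.16, adjusted p = 0.045, against -0.26 ± 0.58 with them). That fit keeps 2 untreated double mutant samples and called 2516 of all probe sets, against 613 in the main fit. Within the stretch before ABCC13 the main count was 6 of 29, with a median of 0.17.

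AT2G07722 again differed most, reading 7.31 to 7.85 in the 4 double mutant samples against 5.10 and 4.69 in the wild type. The difference was 2.59 ± 0.21 or 6.04-fold (adjusted p = 8.88e-05), and no double mutant sample came near the wild type. AT2G07739 (266039_s_at) read 5.34, 5.46, 5.41 and 4.74 against 3.64 and 4.45, a difference of 1.19 ± 0.27 (adjusted p = 0.0445) with close groups. That call was lost in 12 of 20 alternatives, and without untreated wild type replicate 1 the difference was 0.79 ± 0.31 (adjusted p = 0.306). AT2G07741 (266012_s_at) read 8.65, 8.55, 8.16 and 7.64 against 7.27 and 6.95, a difference of 1.14 ± 0.23 (adjusted p = 0.0274), a call lost in 5 of 20. The remaining calls with only nuclear loci were AT2G07708 (0.90 ± 0.17), AT2G07751 (0.82 ± 0.11) and AT2G07678 (0.62 ± 0.14).

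The 9 members that also list a mitochondrial gene differed by 0.13 to 1.81 before heat. AT2G07725 with rpl5 was higher by 1.81 ± 0.28, at 6.75, 6.82, 5.84 and 6.16 against 4.85 and 4.32. AT2G07675 with rps12 was higher by 1.73 ± 0.15 (adjusted p = 0.000125), and AT2G07727 with cob, cytochrome b, by 1.46 ± 0.30. Those listing atp9, cox3 and atp1 were higher by 1.12 ± 0.13, 1.01 ± 0.22 and 0.88 ± 0.15. The other 3 did not pass, with differences of 0.22 ± 0.25 for rps4, 0.15 ± 0.13 for rps7 and 0.13 ± 0.15 for rpl2. Members listing ribosomal protein genes were thus at both ends of that range.

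These counts are small and turn on few libraries. Without untreated wild type replicate 1, 2 of 35 and 3 of 9 passed, and without replicate 2 there were 2 and 2. Over all probe sets 113 and 140 then passed, against 613 with every sample. Without untreated double mutant replicate 3, 2 of 35 passed, whereas without the 3 libraries that stand apart 10 of 35 and 6 of 9 did. Calls over all probe sets were 271 and 2516 there. Centring on reference genes shifted the median over every probe set from 0.02 to -0.21. It left 6 higher and 3 lower among the 35 and turned their median to -0.19, while 3831 of all probe sets passed. After quantile normalization between arrays 2 and 4 were higher, where 275 of all probe sets passed. Of the root markers, PYK10 was also higher in the untreated double mutant, at 7.47, 8.69, 8.88 and 8.24 against 6.82 and 6.38 (1.72 ± 0.33, adjusted p = 0.0234), while EXPA7 gave -0.38 ± 0.10 (adjusted p = 0.0694). The leaf marker RCA was higher (0.46 ± 0.09, adjusted p = 0.0291), and LHCB4.1 gave 0.31 ± 0.08 (adjusted p = 0.0575). The pollen markers TUA1 and ACT12 gave -0.23 ± 0.11 and -0.07 ± 0.09. Their part in the result was not tested.

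After heat (3 double mutant against 3 wild-type samples), 13 of the 44 members were higher in the double mutant and none lower, where 0.897% of all probe sets passed and 0.497% passed upward. Of those with only nuclear loci 11 of 35 were higher (8 _s_at and 3 plain _at), with a median of 0.41. All 11 lie in the stretch before ABCC13, where they are 11 of 29 with a median of 0.57. Of the 9 with a mitochondrial gene 2 were higher, with a median of 0.88. All 9 were positive and 9 of 9 had an unadjusted p under 0.05 by limma, as did 2809 of all 22746 probe sets.

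AT2G07719 differed most after heat. Its readings were 9.90, 10.22 and 9.84 in the double mutant and 7.86, 7.75 and 7.23 in the wild type, so the groups were well apart, by 2.37 ± 0.20 (adjusted p = 0.00058). AT2G07721 (265234_at) read 7.72, 7.66 and 6.32 against 4.89, 5.08 and 4.94, a difference of 2.26 ± 0.29 or 4.80-fold (adjusted p = 0.00539). Its untreated readings, 4.12 to 4.34 in the double mutant and 4.17 and 4.13 in the wild type, differed by only 0.11 ± 0.30. Replicate 3 of the heated double mutant was the lowest of its group for AT2G07721 and still above every wild-type sample. The heated call of AT2G07721 was lost in 1 of 19 alternatives.

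AT2G07705 read 9.49, 10.06 and 9.04 against 7.50, 7.76 and 7.95, a difference of 1.79 ± 0.28 (3.46-fold, adjusted p = 0.0138). This call was lost in 4 of 20 alternatives, with an adjusted p of up to 0.0841. The third plain _at member to pass was AT2G07749 (257320_at), at 7.41, 7.14 and 7.31 against 6.07, 6.05 and 6.36 (1.13 ± 0.13, adjusted p = 0.00355). AT2G07773 was higher by 1.62 ± 0.29, AT2G07676 by 1.16 ± 0.17 and AT2G07722 by 1.04 ± 0.20. AT2G07695, AT2G07708, AT2G07751 and AT2G07678 were higher by 0.74 to 0.85.

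Among members with a mitochondrial gene, AT2G07734 with rps4 read 10.19, 10.06 and 9.26 against 8.59, 8.57 and 8.83, a difference of 1.17 ± 0.23. Its adjusted p was 0.0442, and the call was lost in 14 of 20 alternatives, with an adjusted p of up to 0.213. AT2G07675 with rps12 was higher by 1.05 ± 0.14 (adjusted p = 0.00706). The rest gave 0.32 for atp1 to 0.90 for cob without passing. AT2G07722, AT2G07708, AT2G07751, AT2G07678 and AT2G07675 passed both before and after heat, which is 5 of the 12 calls before and of the 13 after it.

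**Figure D3:**
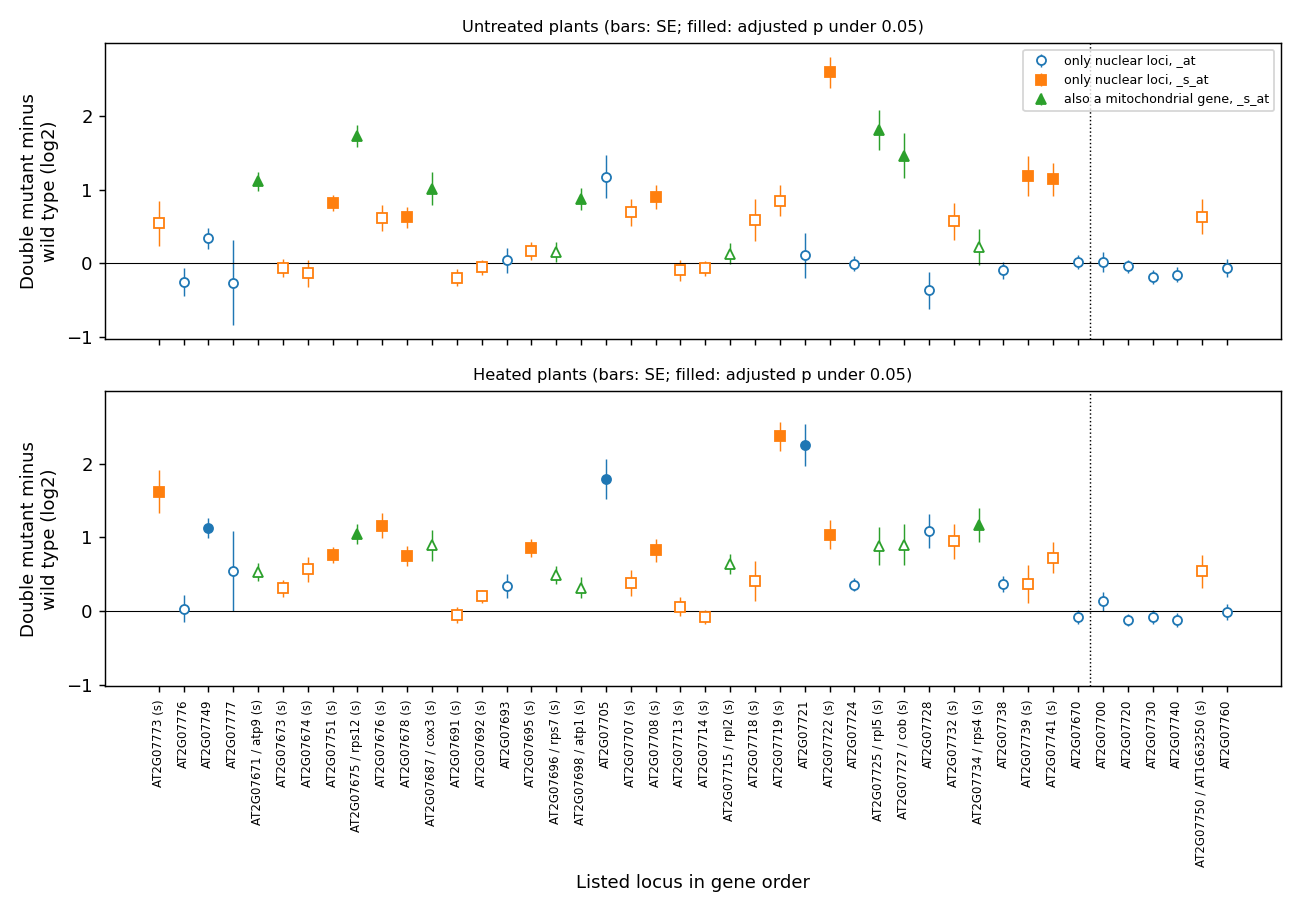
Double mutant minus wild type (log2, with SE bars) for the 44 probe sets in gene order, untreated above and heated below. Filled symbols passed at an adjusted p under 0.05, and the dotted line marks where the loci beyond MCM5 begin. The plain _at members (circles) are open throughout the upper panel, and 3 are filled in the lower one.

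Counts after heat also turned on single libraries. Heated double mutant replicate 3 was the lowest of its group for 23 of 44 members and the highest for 8. Without it 15 of 35 and 6 of 9 members passed, and without all 3 libraries that stand apart 17 of 35 and 6 of 9. Calls rose over the whole array too, to 1061 and 1462 probe sets, against 204 with every sample. Without heated wild type replicate 1, 3 of 35 and 1 of 9 passed, and without its replicate 2, 7 of 35 and 1 of 9. Over all probe sets 38 and 119 passed there. Without heated double mutant replicates 1 or 2 in turn 6 of 35 and 1 of 9 did, and 78 and 57 of all probe sets. Of the 9, 1 also passed without heated wild type replicate 3, untreated wild type replicate 1 or 2, or untreated double mutant replicate 1 or 2. Over all probe sets 110, 163, 163, 177 and 157 passed in these fits, in that order, against 204 with every sample. No marker of root, pollen or leaf differed between heated genotypes, with adjusted p of 0.23 to 0.955.

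**Figure D4:**
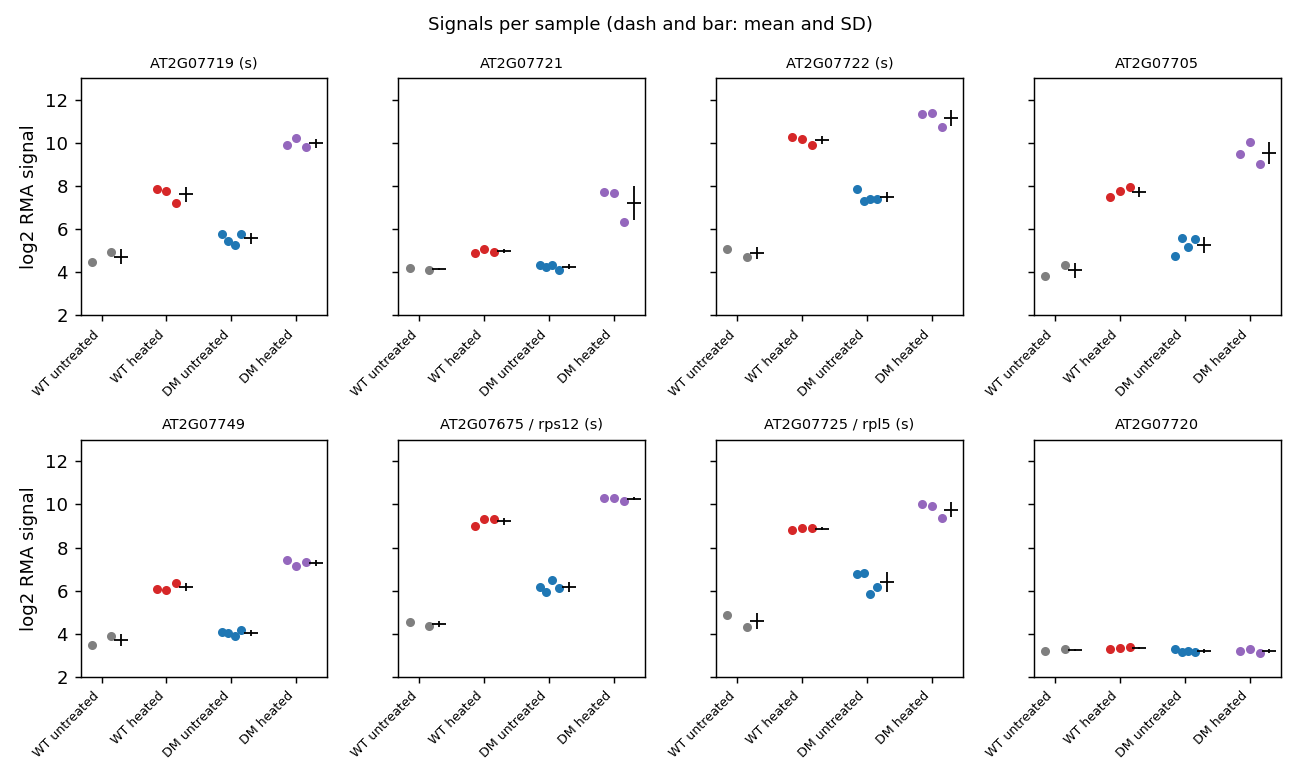
Log2 RMA signal of 8 probe sets in every sample (points), with the mean and SD of each group (dash and bar), for wild type (WT) and double mutant (DM). AT2G07721 reads 4.12 to 5.08 outside the heated double mutant and 6.32 to 7.72 within it, whereas AT2G07720, beyond MCM5, stays between 3.09 and 3.36.

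The insertion was set beside 2 other groups of probe sets. Of 140 probe sets that list only chromosome 2 loci numbered on either side of it, none lies within the stretch of 38 members in the TAIR10.1 order. Heat raised 4 and lowered 4 of these neighbours in the wild type, and 9 and 4 in the double mutant, with medians of 0.05 and 0.08. Over all probe sets 26.5% and 34% passed. Signal levels of the neighbours are not given here, so small differences among them need not mean a lack of response. Between genotypes 1 was lower before heat and none differed after it by limma. After heat 3 of the 140 had an unadjusted p under 0.05, as did 2809 of all 22746 probe sets. The 5 probe sets of mitochondrial genes other than nad and ccb with no insertion locus all rose with heat, by 2.00 to 4.23 in the wild type and 2.24 to 3.58 in the double mutant. Before heat 4 of these 5 were higher in the double mutant, cox1 by 1.47 ± 0.19, cox2 by 0.88 ± 0.17, matR by 1.01 ± 0.23 and the pair rps3 and rpl16 on a single probe set by 1.59 ± 0.16, and after heat 1 was, cox1 by 1.19 ± 0.18. By suffix, cox1 and cox2 are on plain _at probe sets, while matR, orfX and the pair rps3 and rpl16 are on _s_at ones. Having no insertion locus means only that the annotation lists none, since no probe sequence was used. No test compared these groups with the members.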

How the data were processed

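Above-ground parts of Arabidopsis were measured on Affymetrix arrays in 12 samples. The authors deposited log2 signals per probe set made with RMA from the affy package, per the submitters' processing notes, whose versions are not given in the sources used here. RMA includes background correction and quantile normalization. Of 22810 probe sets 64 Affymetrix controls were left out. Probe sets were assigned to genes by the platform annotation, and loci were ordered by RefSeq TAIR10.1, which held all 44 members. In limma, 4 group means were estimated from all 12 samples over 22746 probe sets (8 residual and 3.22 prior degrees of freedom), with two-sided moderated tests and Benjamini-Hochberg adjustment over all probe sets at 0.05. Errors of differences are SE and errors of means are SD. Precision is limited by the few arrays, most of all the 2 of untreated wild type. Members, lists and alternatives were chosen with earlier results of these data known. Signals in every sample are given, per comparison, for the 3 largest rises and 2 largest falls with only nuclear loci and the 2 largest rises and 1 largest fall with a mitochondrial gene, among calls whose groups do not overlap, and for the members with the highest and lowest mean and the flattest under heat. Any other member named with values, and any member outside its rule comparison, was chosen after its values were seen, among them AT2G07670, AT2G07671, AT2G07714, AT2G07715, AT2G07728, AT2G07749, AT2G07750, AT2G07773 and AT2G07777. Alternatives were centring on 4 measured reference genes, quantile normalization, the probe sets above the median of mean signal, trend and robust moderation, array weights, only the compared groups, a replicate block, leaving out samples and a size of at least 1. The procedure was tested on simulated data. MSH1 and RECA3 were not analysed here. Tests ran in limma 3.58.1 under R 4.3.3. Figures were drawn with matplotlib 3.10.9 under Python 3.11.15, using NumPy 2.4.6 for arrays and pandas 2.3.3 for tables.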

Additional observations from a re-analysis of the deposited data

Results flagged for a closer look

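In the untreated double mutant, the only group of 4 samples, 3 of the 44 members had a sample whose gap to the nearest other, divided by the group's range, passed Dixon's critical value of 0.829. Chance flags about 1 in 20 such groups. AT2G07691 had a ratio of 0.877, with replicate 3 at 4.09 against 3.91 to 3.93. For AT2G07718 the ratio was 0.855, with replicate 1 at 8.63 against 7.77 to 7.89. AT2G07724 also had 0.855, with replicate 4 at 4.12 against 4.24 to 4.26. None of the 3 passed between genotypes, and the gaps of AT2G07691 and AT2G07724 are small on the log2 scale.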

How the results depend on the processing

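Heat counts were steady when 1 sample was left out. Of 35 members with only nuclear loci 17 to 21 rose in the wild type and 26 to 28 in the double mutant. Over all probe sets 3912 to 6528 and 6552 to 7624 passed there, against 6027 and 7725 with every sample. With a difference of at least 1, 18 and 20 of the 35 rose, against 20 and 28 in the main fit. With a mitochondrial gene 9 of 9 rose in every alternative. Among probe sets above the median of mean signal 17 rose in the double mutant, since fewer members were tested. Centring on reference genes called 35 of 35, where 13169 of all 22746 probe sets passed, against 7725 in the main fit. For untreated genotypes, 2 to 9 of 35 and 2 to 6 of 9 passed with 1 sample left out. With only nuclear loci 2 passed after quantile normalization, 3 with the replicate block, 10 without the 3 libraries that stand apart, 3 with a difference of at least 1 and 2 with only the compared groups in the fit, where 2 of 9 with a mitochondrial gene passed. For heated genotypes, 3 to 15 of 35 and 1 to 6 of 9 passed with 1 sample left out. With only nuclear loci 17 passed without the 3 libraries, 7 with a difference of at least 1 and 3 with only the compared groups. With a mitochondrial gene 1 passed after quantile normalization, 1 with the replicate block, 1 with only the compared groups, 7 with array weights and 6 without the 3 libraries. For the difference of the heat responses 0 to 2 of 35 and 0 of 9 passed with 1 sample left out, 1 of 35 with array weights and 3 of 35 without the 3 libraries. Calls over all probe sets moved too. For untreated genotypes 275 passed after quantile normalization, 109 with the replicate block and 2516 without the 3 libraries, against 613. For heated genotypes 206, 102 and 1462 did, against 204, and 683 with array weights. The causes were not tested. AT2G07720, uncalled under heat in the double mutant, changed from -0.0040 to 0.23 and passed (adjusted p = 0.0242) when arrays were centred on reference genes, a scaling that shifted the median over every probe set from 0.01 to 0.24. Of 28 values of single members, 22 were called in the main fit, and 6 of these lost the call in some alternative. Counting uncalled values too, 20 of the 28 stayed as they were, called or not, in all 19 or 20 alternatives. Replicate numbers showed no clear pairing: over 15 same-numbered pairs the correlation of residuals ran from -0.35 to 0.27 and exceeded 0.1 in 3. So few samples per group cannot settle whether the numbers mark pairs. Why calls were lost under the block was not tested. Probe sets near the lower quartile limit what small differences show.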
